A study of Mus musculus with 23 samples.

Results

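The genes described here are the water channels and vasopressin signalling genes of the mouse collecting duct: Aqp2, Aqp3, Aqp4, Avpr2, Avpr1a, Adcy6, Adcy3, Gnas and Elf5. They were chosen as a list of gene names, with no threshold on a measured value, and all 9 were followed among 54393 genes in 23 RNA-seq libraries. Each library was made from tubules dissected out of mouse kidney, connecting tubule together with cortical collecting duct, and all mice carried Pax8-rtTA, TRE-LC-1 and MRflox/flox. This is a doxycycline-inducible system: the Pax8 promoter, active in kidney tubule epithelium, drives the tetracycline-dependent activator, and TRE-LC-1 then expresses the Cre recombinase that deletes the floxed Nr3c2, the gene of the mineralocorticoid receptor (MR). Deletion was induced in the knockout mice over 2 weeks, with doxycycline at 2 mg/ml added to 5% sucrose water, and was followed by a washout of 2 weeks on a rescue diet, whereas controls drank 5% sucrose alone, so a comparison of knockout with control is also one of doxycycline with none. The diets lasted 4 days and gave 4 groups: controls on normal potassium (CT-NK, 5 libraries), controls on high potassium (CT-HK, 6 libraries), knockouts on normal potassium (KO-NK, 6 libraries) and knockouts on low potassium (KO-LK, 6 libraries). No knockout received the high potassium diet and no control the low potassium diet. Age and sex are not given in the sources used here, and nothing says that the libraries of a group came from separate animals, so p-values measure only the spread between these libraries, which may be technical.

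Vasopressin acts on principal cells of the collecting duct through the V2 receptor (Avpr2), which couples to the stimulatory G protein (its alpha subunit is encoded by Gnas) and raises cyclic AMP through adenylyl cyclases, Adcy6 above all. Cyclic AMP activates protein kinase A, which drives Aqp2 into the apical membrane and raises its transcription through CREB and other factors. Water leaves the cell through Aqp3 and Aqp4 in the basolateral membrane. The V1a receptor (Avpr1a) signals through calcium, not cyclic AMP, and in the collecting duct it is known mainly from intercalated cells. Adcy3 is the cyclase best known from olfactory neurons and is also found in renal tubule. Elf5 is an ETS family transcription factor that is known to act on the Aqp2 and Avpr2 promoters in principal cells.

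The promoters of Aqp2, Aqp3, Avpr2 and Avpr1a are printed here because the results turn on the levels of these 4 genes. RefSeq promoter windows were taken for 7 of the 9 members, since Aqp4 was left out beforehand and no entry was used for Adcy6. Each sequence is the 250 bases before the RefSeq transcription start in GRCm38.p6, 5′ to 3′ on the strand of the gene. The windows are chr15:99578806-99579055 on the plus strand for Aqp2, chr4:41098184-41098433 on the minus strand for Aqp3, chrX:73891852-73892101 on the plus strand for Avpr2 and chr10:122448249-122448498 on the plus strand for Avpr1a. Capitals mark matches, on either strand, to the CRE half-site TGACG, the full CRE TGACGTCA, the corticosteroid response half-site TGTTCT, the GATA motif AGATAA and the ETS motif CGGAAG.
Aqp2: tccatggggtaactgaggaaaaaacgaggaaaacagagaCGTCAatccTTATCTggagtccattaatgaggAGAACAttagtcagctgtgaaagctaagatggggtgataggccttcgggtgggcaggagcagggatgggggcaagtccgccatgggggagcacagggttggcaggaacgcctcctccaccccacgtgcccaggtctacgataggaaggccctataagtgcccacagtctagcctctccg
Aqp3: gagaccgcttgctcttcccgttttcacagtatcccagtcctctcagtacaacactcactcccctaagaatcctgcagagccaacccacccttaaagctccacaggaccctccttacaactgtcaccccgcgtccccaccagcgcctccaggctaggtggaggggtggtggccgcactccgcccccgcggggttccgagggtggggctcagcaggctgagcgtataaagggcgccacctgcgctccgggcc
Avpr2: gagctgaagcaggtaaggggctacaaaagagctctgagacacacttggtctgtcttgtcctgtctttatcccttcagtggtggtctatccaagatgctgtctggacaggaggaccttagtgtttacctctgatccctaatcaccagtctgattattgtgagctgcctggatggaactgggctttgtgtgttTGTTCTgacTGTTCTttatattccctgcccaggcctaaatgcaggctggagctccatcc
Avpr1a: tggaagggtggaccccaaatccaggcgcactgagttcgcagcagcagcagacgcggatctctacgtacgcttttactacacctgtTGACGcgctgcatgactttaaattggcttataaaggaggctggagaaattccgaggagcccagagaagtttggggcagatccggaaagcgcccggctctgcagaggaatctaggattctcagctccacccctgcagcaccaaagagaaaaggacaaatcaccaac
The Aqp2 window held a CRE half-site 211 bases before the start, a GATA motif at 202 bases and a corticosteroid half-site at 179 bases. In Avpr2 a corticosteroid half-site began 59 and another 50 bases before the start. Avpr1a had a CRE half-site at 165 bases, and the Aqp3 window held none of the 5 motifs. Such short motifs are common: among 32851 mouse promoter windows of the same length, 17.8% held the CRE half-site, 16.1% the corticosteroid half-site, 10% the GATA motif, 13.6% the ETS motif and 1.5% the full CRE, which contains the half-site. A match is a description of the letters and not a measured binding site.

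Library totals ran from 16158408 to 34154475 estimated counts. Nr3c2 was lower in the knockout libraries, with a mean of 58.8 ± 10.4 (SD, n = 6) CPM (counts scaled to library size) for KO-NK and 54.3 ± 15.6 (SD, n = 6) for KO-LK, while CT-NK had 108 ± 33.2 (SD, n = 5) and CT-HK 108 ± 25.8 (SD, n = 6). All 4 differences passed the test used below, as did the pooled one (log2 -0.94, adjusted p = 1.55e-04), and the ranges overlapped. Per transcript length the gap was smaller, with mean Nr3c2 TPM of 34.9 in KO-NK and 34.1 in KO-LK against 40.9 and 38.2 in the controls, and the labels do not name the deleted exons. Sgk1, a kinase gene induced by aldosterone, fell in all 4 knockout comparisons and its ranges did not overlap between knockout and control (30.3 to 272 CPM against 524 to 982 CPM). All 13 principal cell markers other than the members had a median above 1 CPM in every group, as did the 5 connecting tubule markers. In 8 libraries, 2 of CT-NK, 1 of CT-HK, 2 of KO-NK and 3 of KO-LK, genes of olfactory and vomeronasal receptors (Olfr and Vmn), which kidney tubules are not known for, took more than 2500 CPM in all. KO-NK replicate 3 was the shallowest library and had the most such counts, 9122.8 CPM. It was the lowest of its group for 7 of the 9 members and the highest for the other 2.

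The order of the members was taken from TPM, a level per transcript length, averaged over the 23 libraries. Aqp2 stood first at 1791 ± 659 (SD, n = 23) and Aqp3 next at 809 ± 312, and Aqp2 exceeded Aqp3 in 23 of 23 libraries. Gnas, at 238 ± 47.5, and Avpr2, at 213 ± 82.5, were not separated, since Gnas was above Avpr2 in 15 of 23 libraries. Avpr1a followed at 22.2 ± 10.4 and was above Adcy6, at 10.2 ± 2.11, in 22 of 23 libraries. Aqp4 at 2.23 ± 1.59, Adcy3 at 1.39 ± 1.11 and Elf5 at 0.698 ± 0.622 came last, and their order changed from library to library: Aqp4 exceeded Adcy3 in 12 of 23 and Adcy3 exceeded Elf5 in 18 of 23. The labelled tissue thus held its defining water channel at the top of the set, and the low members rested on few counts, 12.7 to 64.7 per library for Adcy3 and 8.4 to 66.7 for Elf5.

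Across the 4 comparisons of a knockout group with a control group, Avpr1a was the one member that passed the test. The test was edgeR's quasi-likelihood F test on counts scaled between libraries by TMM, fitted to all 25829 genes that passed the low-count filter, with Benjamini-Hochberg adjusted p under 0.05 as the threshold. All 9 members passed the filter. In KO-NK against CT-NK 0 of 9 members passed, with 1 at an unadjusted p under 0.05, where 1.70% of all genes tested passed. In KO-LK against CT-NK 0 of 9 passed, with 1 at an unadjusted p under 0.05 and a background of 2.04%. In KO-NK against CT-HK 1 of 9 passed, against 5.78% of all genes, and in KO-LK against CT-HK 1 of 9, against 5.49%. With the diets pooled, 1 of 9 passed, against 10.5% of all genes. With 1 gene of 9, no share of the members stood apart from these backgrounds. The median log2 fold change of the members was 0.07, -0.04, 0.31 and -0.09 in the 4 comparisons in that order, beside 0.15, -0.04, 0.21 and -0.01 for all genes tested. DESeq2 called Avpr1a in each of the 4 comparisons and Aqp2 in KO-LK against CT-HK. The 2 knockout groups are each compared with the same 2 control groups, so the 4 comparisons share libraries.

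**Figure D1:**
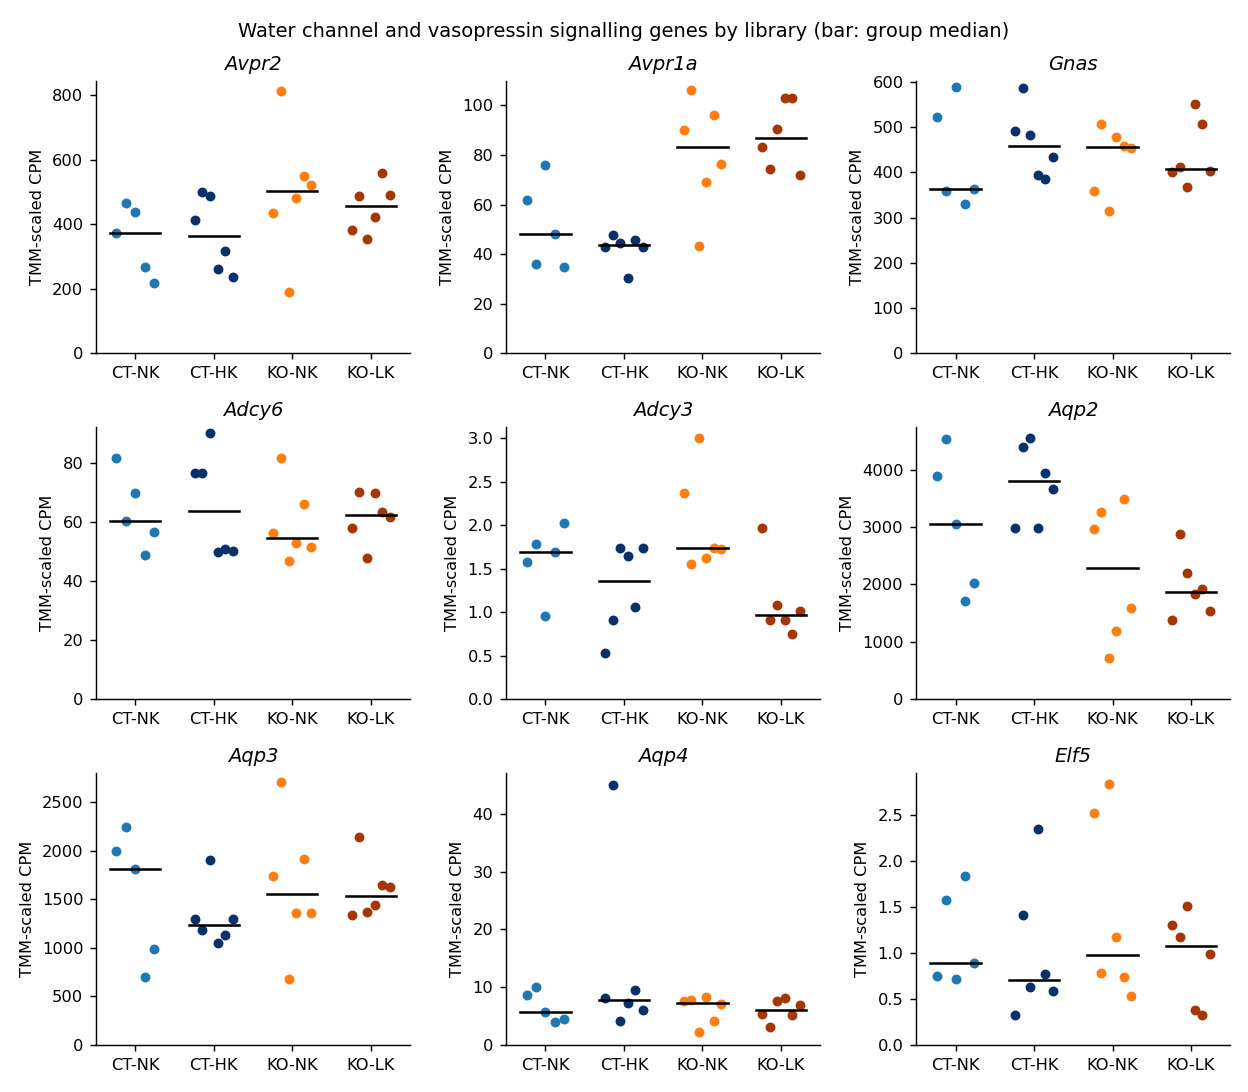
TMM-scaled CPM (vertical axis, from 0) of the 9 member genes, 1 point per library, by group (CT-NK n = 5, the other groups n = 6), with the group median as a bar. For Avpr1a the KO-LK libraries sit between 72.0 and 103 CPM and the CT-HK libraries between 30.2 and 47.9 CPM, and for Aqp2 the KO-LK libraries lie below all CT-HK libraries.

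Avpr1a (ENSMUSG00000020123, GRCm38 chromosome 10, 122448499 to 122453452, plus strand), the V1a receptor, was higher in knockout libraries. CT-NK libraries had 61.9, 36.1, 76.1, 48.0 and 34.9 CPM, and CT-HK libraries ran from 30.2 through a median of 43.7 to 47.9 CPM. KO-NK libraries ran from 43.4 through 83.1 to 106 CPM and KO-LK libraries from 72.0 through 86.8 to 103 CPM. Every KO-LK library was above every CT-HK library, while in KO-NK the lowest library, replicate 3, overlapped both control groups. KO-NK replicate 4 (69.0 CPM) and KO-LK replicates 2 and 6 (74.4 and 72.0 CPM) also lay below the highest CT-NK library, at 76.1 CPM. Against CT-HK the difference was 1.05 (log2, SE 0.20, adjusted p = 0.00181) for KO-LK and 0.92 (SE 0.20, adjusted p = 0.00559) for KO-NK by edgeR. Against CT-NK it was 0.77 (SE 0.21, adjusted p = 0.0579) for KO-LK and 0.64 (SE 0.21, adjusted p = 0.141) for KO-NK, neither past the threshold. The control groups themselves differed by -0.28 (SE 0.21, adjusted p = 1, CT-HK against CT-NK), so a larger effect against one control diet than the other was not shown. With the diets pooled Avpr1a averaged 83.8 CPM in knockouts and 46.4 CPM in controls, a 1.80-fold difference (log2 0.84, SE 0.15, adjusted p = 3.21e-04), with 11 of 12 knockout libraries above the control median.

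The comparisons of Avpr1a with CT-HK and the pooled one passed under every alternative tried, with log2 differences of 0.84 to 1.34 for KO-NK, 0.97 to 1.52 for KO-LK and 0.79 to 1.22 pooled. Without the 8 libraries rich in olfactory and vomeronasal counts they were 0.95 (adjusted p = 0.00617), 1.07 (adjusted p = 0.00618) and 0.82 (adjusted p = 0.00224). The comparisons with CT-NK crossed the threshold with the libraries used: leaving out KO-NK replicate 3 gave 0.78 (adjusted p = 0.00391) for KO-NK, and KO-LK against CT-NK passed in 13 of 23 fits with 1 library left out (those without CT-NK replicate 3, CT-HK replicates 4 and 6, KO-NK replicates 2 to 6, and KO-LK replicates 1, 2, 4, 5 and 6), at 0.77 to 0.96. Because Avpr1a is known from intercalated cells, their markers are given beside it. Over 6 markers of both kinds of intercalated cell, the summed CPM ran from 3750 to 5445 for CT-NK, 3875 to 6798 for CT-HK, 2604 to 5699 for KO-NK and 3227 to 5100 for KO-LK. Of these 6 markers 0 passed the edgeR test in any comparison, and none was at 0. Markers of each kind alone did give calls in the pooled comparison, where 10.5% of all genes were called. Of 7 alpha markers Dmrt2 was called higher and Rhbg lower, with 6 of 7 positive and a median log2 difference of 0.43. Of 5 beta markers Spink8 was called lower, with 2 of 5 positive and a median of -0.05. With the alpha, beta and both-kind markers summed together as a covariate, the pooled Avpr1a difference was 1.01 (adjusted p = 3.89e-07). That covariate thus included Dmrt2, Rhbg and Spink8. The part of intercalated cell content in the Avpr1a values was not tested.

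Avpr2 (ENSMUSG00000031390, GRCm38 chromosome X, 73892102 to 73895502, plus strand), the V2 receptor, had higher medians in the knockout groups without passing the test. CT-NK libraries had 374, 464, 439, 267 and 219 CPM, and CT-HK libraries 237 to 500 CPM with a median of 364. KO-NK libraries ran from 189 through 502 to 812 CPM and KO-LK libraries from 354 through 455 to 559 CPM. All 4 groups overlapped, and KO-NK held both the lowest library of the series (replicate 3) and the highest (replicate 2). The pooled difference was 0.39 (log2, SE 0.19, adjusted p = 0.236), with 10 of 12 knockout libraries above the control median. Without KO-NK replicate 3 it was 0.53 (adjusted p = 0.0112), and with the intercalated marker covariate 0.63 (adjusted p = 3.31e-04). On TPM, the level per length, limma gave a pooled difference of 0.83 (adjusted p = 9.55e-04), with mean TPM of 164 and 143 for the controls (CT-NK, CT-HK) and 276 and 259 for the knockouts (KO-NK, KO-LK). Avpr2 shares 81.3% of its exonic bases with Arhgap4 on the opposite strand, and the kit does not keep strand, so reads from the shared bases cannot be told apart. Arhgap4 was given 33411.7 counts over all libraries and Avpr2 243310.3.

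**Figure D2:**
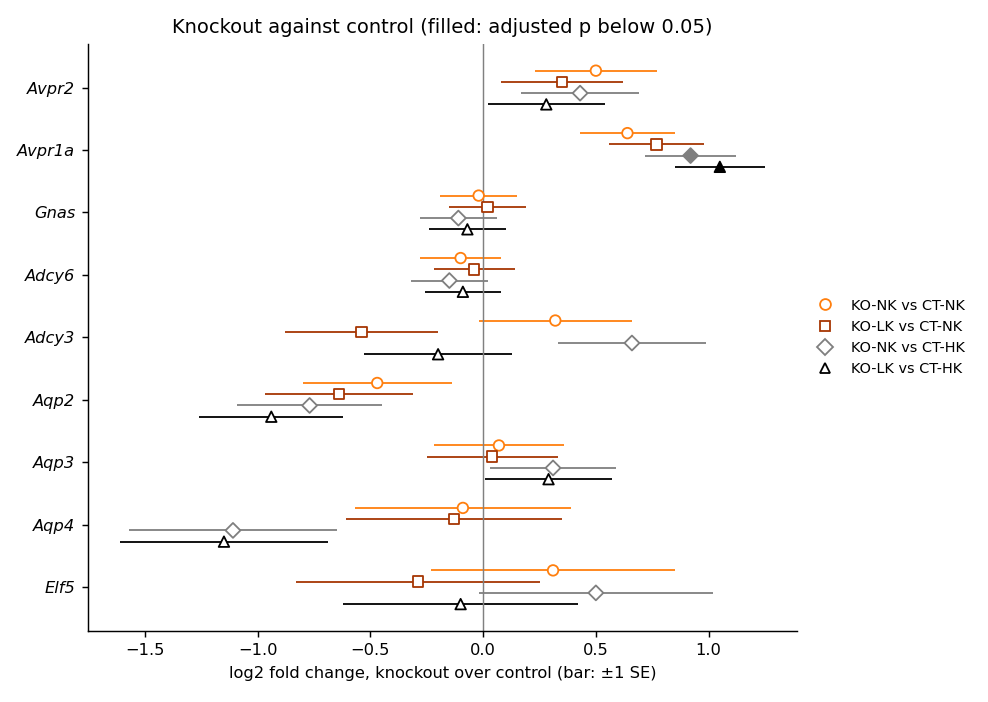
Log2 fold change, knockout over control (horizontal axis), of each member in the 4 comparisons of a knockout with a control group, from the edgeR fit. Points are estimates, bars 1 standard error either side, and filled symbols passed the threshold: the filled ones are Avpr1a against CT-HK, at 0.92 for KO-NK and 1.05 for KO-LK.

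Gnas (ENSMUSG00000027523, GRCm38 chromosome 2, 174284320 to 174346744, plus strand), which encodes the stimulatory G protein alpha subunit, was nearly level across groups. CT-NK libraries had 523, 358, 588, 331 and 364 CPM, and the other groups ran from 386 through 458 to 587 CPM (CT-HK), 314 through 456 to 506 CPM (KO-NK) and 368 through 406 to 550 CPM (KO-LK). The ranges of the groups overlapped, and the pooled difference was -0.04 (log2, SE 0.12, adjusted p = 0.934, 95% interval -0.30 to 0.21). Adcy6 (ENSMUSG00000022994, GRCm38 chromosome 15, 98589973 to 98610076, minus strand), the cyclase that makes most of the V2-driven cyclic AMP, had 81.6, 60.3, 69.6, 48.9 and 56.5 CPM in CT-NK. Medians of Adcy6 were 63.6 CPM in CT-HK (49.9 to 90.0), 54.5 in KO-NK (46.8 to 81.5) and 62.4 in KO-LK (47.8 to 70.2), again overlapping. The pooled difference was -0.09 (SE 0.12, adjusted p = 0.837, 95% interval -0.35 to 0.16). The receptor's immediate partners therefore gave differences below the spread between libraries on the CPM scale. Small parts of their exons overlap other genes, 13.1% with Gm20721 and 8.8% with Nespas for Gnas and 8.9% with Gm29331 for Adcy6. On TPM with limma both were called higher in the pooled comparison, Gnas by 0.41 (adjusted p = 0.00154) and Adcy6 by 0.33 (adjusted p = 0.0192). On that scale the median of all genes was itself 0.22 and 95.9% of the genes called were higher in knockouts, against 44.4% in the edgeR fit.

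Adcy3 (ENSMUSG00000020654, GRCm38 chromosome 12, 4133103 to 4213525, plus strand) was near the limit of detection. CT-NK libraries had 1.58, 1.78, 0.960, 1.69 and 2.03 CPM, CT-HK 0.526 to 1.74 CPM (median 1.35), KO-NK 1.56 to 3.01 CPM (median 1.73) and KO-LK 0.747 to 1.97 CPM (median 0.966). All KO-NK libraries were above the KO-LK median, and only the highest KO-LK library, replicate 1, reached into the KO-NK range. KO-NK against KO-LK differed by 0.86 (log2, SE 0.33, adjusted p = 0.928), and 0 of 9 members passed in that comparison by edgeR, DESeq2 or limma, with 1 at an unadjusted p under 0.05 by edgeR. Of all genes tested 0% passed there. Of the exonic bases of Adcy3 22.1% overlap Cenpo on the opposite strand, a centromere protein gene with 4683.4 counts over all libraries against 837.8 for Adcy3.

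Aqp2 (ENSMUSG00000023013, GRCm38 chromosome 15, 99579055 to 99584547, plus strand), the vasopressin-regulated apical water channel, had lower medians in the knockout groups. CT-NK libraries had 3893, 4531, 3059, 1705 and 2026 CPM, and CT-HK libraries ran from 2980 through 3807 to 4559 CPM. KO-NK libraries ran from 719 through 2280 to 3494 CPM and KO-LK libraries from 1374 through 1877 to 2879 CPM. Every KO-LK library was below every CT-HK library, while KO-NK overlapped both control ranges and CT-NK was itself widely spread. KO-LK averaged 1959 CPM against 3759 CPM in CT-HK, a difference of -0.94 (log2, SE 0.32, adjusted p = 0.0952 by edgeR). The other differences were -0.77 (SE 0.32, adjusted p = 0.19) between KO-NK and CT-HK, -0.64 (SE 0.33, adjusted p = 0.452) between KO-LK and CT-NK and -0.47 (SE 0.33, adjusted p = 0.713) between KO-NK and CT-NK. None passed the threshold.

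Pooled over diets, Aqp2 averaged 2082 CPM in knockouts and 3433 CPM in controls, with 12 of 12 knockout libraries below the control median. That difference, -0.70 (log2, SE 0.23, adjusted p = 0.0521), lay just short of the threshold, with a 95% interval of -1.18 to -0.22. DESeq2 called it (-0.72, adjusted p = 0.013), as did 8 of the 33 alternatives in all. Among them were the fits without CT-NK replicate 4 (-0.78, adjusted p = 0.0342), CT-HK replicate 4 (-0.73, 0.0441), KO-NK replicate 1 (-0.76, 0.0434), KO-NK replicate 5 (-0.76, 0.0398) and KO-LK replicate 2 (-0.74, 0.0448). On TPM the pooled difference was -0.32 (limma, adjusted p = 0.314), and over all alternatives it ran from -0.78 to -0.32 without a change of sign. Without the 8 libraries rich in olfactory and vomeronasal counts it was -0.58 (adjusted p = 0.14). In bulk tubule RNA fewer principal cells and less Aqp2 RNA per cell cannot be told apart. The 13 other principal cell markers had summed CPM of 6767 to 11594 for CT-NK, 7613 to 12679 for CT-HK, 6676 to 12812 for KO-NK and 8891 to 11658 for KO-LK, ranges that overlapped. Of those 13 markers 5 were called higher and 1 lower in the pooled comparison, where 10.5% of all genes were called.

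Aqp3 (ENSMUSG00000028435, GRCm38 chromosome 4, 41092722 to 41098183, minus strand), the basolateral channel that also carries glycerol, gave differences of the opposite sign to Aqp2, none past the threshold. CT-NK libraries had 1998, 2248, 1807, 697 and 987 CPM, and CT-HK libraries 1053 to 1900 CPM with a median of 1238. KO-NK libraries ran from 683 through 1549 to 2703 CPM and KO-LK libraries from 1340 through 1535 to 2140 CPM. The ranges overlapped in every comparison, although 11 of 12 knockout libraries were above the control median. Pooled, Aqp3 differed by 0.18 (log2, SE 0.20, adjusted p = 0.793, 95% interval -0.24 to 0.60), and by 0.07, 0.04, 0.31 and 0.29 in the 4 separate comparisons. On TPM the pooled value was 0.64 (limma, adjusted p = 0.0148). Aqp4 (ENSMUSG00000024411), the other basolateral channel, was scarce: CT-NK libraries had 8.63, 10, 5.76, 3.93 and 4.46 CPM, KO-NK 2.18 to 8.30 CPM (median 7.31) and KO-LK 3.06 to 8.05 CPM (median 6.13). CT-HK ran from 4.10 to 45.0 CPM around a median of 7.71, with replicate 2 alone at 45.0. The CT-HK against CT-NK difference of 1.02 (SE 0.49, adjusted p = 1) was 0.10 (adjusted p = 1) without that library.

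The ratio of Aqp2 to Aqp3 inside each library separated the genotypes with less overlap than the CPM of either gene. It was taken from TPM, was chosen after the values had been seen, and does not depend on scaling between libraries. CT-NK libraries had ratios of 2.52, 2.61, 2.20, 3.19 and 2.66, and CT-HK libraries ran from 2.99 through 3.68 to 4.83. KO-NK libraries ran from 1.15 through 1.55 to 2.38 and KO-LK libraries from 1.24 through 1.59 to 2.09. All KO-LK libraries lay below all control libraries, and 2 KO-NK libraries, replicates 1 and 5, reached into the CT-NK range. The geometric mean was 3.18 in controls and 1.61 in knockouts, 1.97-fold apart, with 10 of 12 knockout libraries below every control (two-sided permutation test, p = 2.00e-05, the smallest that the resamples can give, adjusted p = 2.80e-04 over 28 ratio tests). Separately, the log2 differences were -0.67 (exact permutation p = 0.013, adjusted 0.026) for KO-NK and -0.74 (p = 0.00433, adjusted 0.011) for KO-LK against CT-NK. Against CT-HK they were -1.18 for KO-NK and -1.25 for KO-LK (both exact permutation p = 0.00216, the smallest that 6 against 6 libraries allow, adjusted 0.0101).

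The same ratio differed between diets in controls. CT-HK was above CT-NK by 0.51 (log2, exact permutation p = 0.013, adjusted 0.026), with 4 of 6 CT-HK libraries above all CT-NK libraries, while KO-NK and KO-LK differed by 0.07 (p = 0.738, adjusted 0.827). The diets differ between those 2 contrasts, and the difference between them was not tested. Aqp2 to Avpr2, the channel against its receptor, gave geometric means of 11.52 for CT-NK, 14.38 for CT-HK, 5.68 for KO-NK and 5.90 for KO-LK. Pooled it was 2.24-fold lower in knockouts (log2 -1.17, permutation p = 2.00e-05, the smallest the resamples can give, adjusted 2.80e-04), again with 10 of 12 knockout libraries below every control. The ratios of Aqp2 to Gnas and to Adcy6 were lower by -0.74 and -0.70 (permutation p = 0.00406 and 0.0028, both adjusted 0.011), with 7 of 12 libraries below every control. Without the 8 libraries rich in olfactory and vomeronasal counts the pooled differences were -0.98 (p = 6.22e-04) for Aqp2 to Aqp3 and -1.27 (p = 3.11e-04) for Aqp2 to Avpr2 by permutation tests. In the libraries left, Aqp2 to Aqp3 differed from CT-NK by -0.62 (exact permutation p = 0.114) for KO-NK and -0.59 (p = 0.1) for KO-LK. Neither test could pass the threshold, because too few libraries were left. These were CT-NK replicates 1, 3 and 5, KO-NK replicates 2, 4, 5 and 6, and KO-LK replicates 2, 4 and 5. The p of 0.1 is the smallest that the KO-LK comparison allows. Its KO-LK ratios, at most 1.73, all lay below the CT-NK ratios, at least 2.20, while KO-NK replicate 5, at 2.38, overlapped CT-NK.

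**Figure D3:**
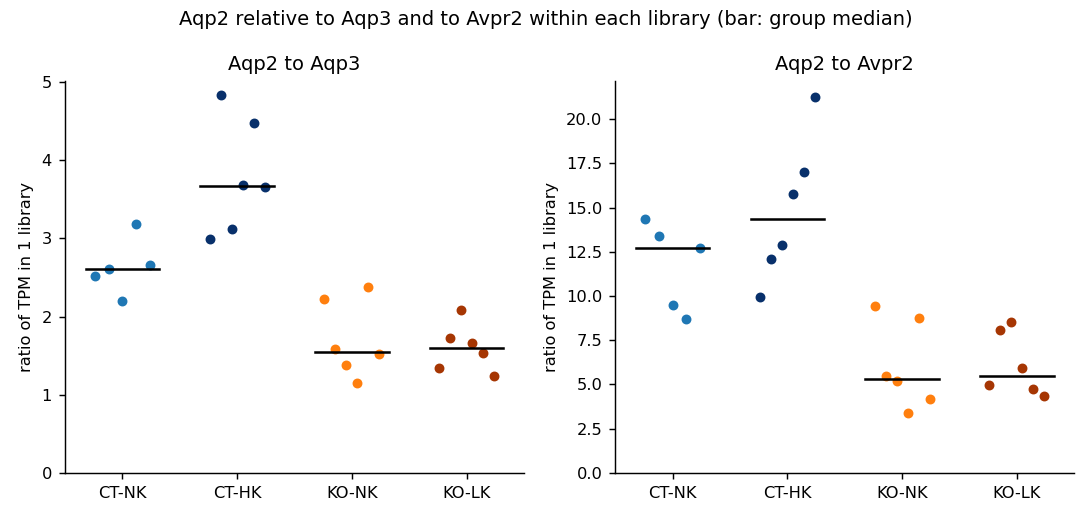
Ratio of Aqp2 TPM to Aqp3 TPM (left) and to Avpr2 TPM (right) in each library (vertical axis, no unit, from 0), by group, with the group median as a bar. The Aqp2 to Aqp3 ratios of the 12 knockout libraries lie between 1.15 and 2.38 and those of the 11 controls between 2.20 and 4.83.

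Connecting tubule markers, taken as a sum, moved with genotype as Aqp2 did, and more strongly. Over 5 markers the summed CPM was 27645 to 39025 for CT-NK and 19276 to 63050 for CT-HK, and it was 7745 to 14926 for KO-NK and 4663 to 18648 for KO-LK. In the pooled comparison 3 of 5 passed the edgeR test as lower (Calb1, S100g and Klk1), where 10.5% of all genes were called. The median log2 difference over the 5 was -1.81, 1 of the 5 was positive, and none was at 0. In KO-LK against CT-NK Calb1, S100g and Trpv5 were called, 2 lower and 1 higher, where 2.04% of all genes were called. The part of connecting tubule content in the Aqp2 values was not tested. Proximal tubule markers, 12 in all, summed to 459 to 14233 CPM for CT-NK and 222 to 22599 for CT-HK, and to 823 to 4550 for KO-NK and 292 to 1384 for KO-LK. Markers of the inner medullary collecting duct, 4 in all, were higher in knockouts, at 635 to 1135 summed CPM for KO-NK and 759 to 1318 for KO-LK, beside 284 to 612 for CT-NK and 361 to 706 for CT-HK. Every KO-LK library was above every control library, and KO-NK overlapped CT-HK. The part of this in the Avpr1a and Aqp2 values was not tested. With proximal tubule and thick ascending limb markers as covariates the pooled Aqp2 difference was -0.70 (adjusted p = 0.113) and that of Avpr1a 0.82 (adjusted p = 0.003).

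Elf5 (ENSMUSG00000027186, GRCm38 chromosome 2, 103411688 to 103450989, plus strand) was at about 1 CPM in every group. CT-NK libraries had 0.743, 1.57, 0.720, 1.83 and 0.893 CPM, CT-HK 0.324 to 2.34 CPM (median 0.699), KO-NK 0.535 to 2.83 CPM (median 0.976) and KO-LK 0.320 to 1.51 CPM (median 1.08). The groups overlapped, and the pooled difference was 0.11 (log2, SE 0.37, adjusted p = 0.951, 95% interval -0.68 to 0.89). No Elf5 difference was shown, and differences of either sign within this interval were not excluded. Its values were higher in libraries with more olfactory and vomeronasal counts: the 8 rich libraries had 0.988 to 2.83 CPM (median 1.70) and the other 15 had 0.320 to 1.41 CPM (median 0.740). Adcy3 was similar at its upper end, with 1.02 to 3.01 CPM (median 1.74) in the 8 and 0.526 to 2.03 CPM (median 1.56) in the 15. The abundant members went the other way, Aqp2 with medians of 1954 CPM in the 8 and 3059 CPM in the 15, Gnas with 363 and 482 CPM and Adcy6 with 53.0 and 69.6 CPM. The part of these counts in the Elf5 and Adcy3 levels was not tested.

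**Figure D4:**
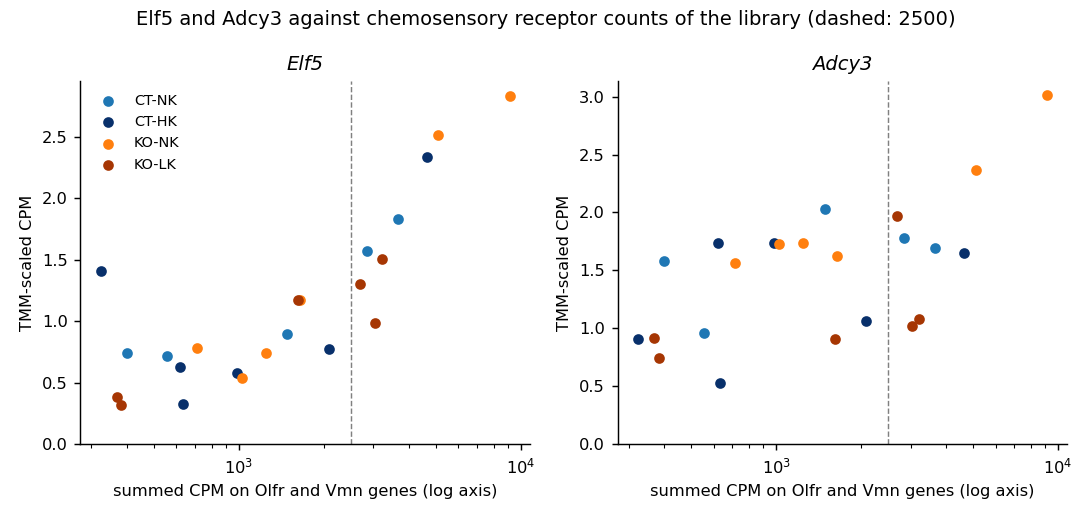
TMM-scaled CPM of Elf5 (left) and Adcy3 (right) in each of the 23 libraries (vertical axes, from 0) against the summed CPM on Olfr and Vmn genes (horizontal log axis), coloured by group, with the 2500 CPM line dashed. The library farthest to the right, KO-NK replicate 3 at 9122.8 CPM, has the highest value of both genes.

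No member passed the test between potassium diets of 1 genotype. In CT-HK against CT-NK 0 of 9 members passed by edgeR, DESeq2 or limma, with 1 at an unadjusted p under 0.05 in each (Aqp4 by edgeR), and 0% of all genes passed by edgeR. Aqp2 differed by 0.30 (log2, SE 0.33, adjusted p = 1, 95% interval -0.40 to 1.01), Aqp3 by -0.24 (SE 0.29) and Avpr2 by 0.06 (SE 0.27). In KO-NK against KO-LK Aqp2 differed by 0.17 (SE 0.32, adjusted p = 0.933), Avpr1a by -0.13 (SE 0.20) and Avpr2 by 0.15 (SE 0.26). The interval of Aqp2 between control diets reaches a size like that of the difference between genotypes.

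Inside the groups Aqp2 varied together with other members from library to library. Over the 23 libraries its log2 CPM correlated with Aqp3 at Pearson r = 0.53 (permutation p = 0.00881, adjusted 0.0447 over 8 relations) and Spearman rho = 0.38 (permutation p = 0.0759, adjusted 0.225). Without the 2 libraries farthest from the median, KO-NK replicates 3 and 4, r was 0.37, so the pooled relation rests partly on them. With the group means taken out r was 0.86 (permutation p adjusted 8.00e-05), and it was 0.74 in the 11 controls and 0.89 in the 12 knockouts. Avpr2 gave 0.29 pooled (rho 0.14, permutation p adjusted 0.266 and 0.607) and 0.69 with group means taken out (adjusted 0.00124). Avpr1a gave -0.20 pooled (rho -0.27) and 0.59 group-centred (permutation p adjusted 0.00936), 0.09 in controls and 0.77 in knockouts. Adcy6 gave 0.52 (rho 0.46, permutation p adjusted 0.0447 and 0.225), 0.41 without the 2 farthest libraries. In the 15 libraries without high olfactory and vomeronasal counts r was 0.25 for Aqp3, -0.06 for Avpr2 and 0.50 for Adcy6. All points share depth, dissection and RNA quality within a library. Aqp4 (0.43), Gnas (0.35), Adcy3 (-0.28) and Elf5 (-0.25) did not pass after adjustment.

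Among 11456 genes with a mean of at least 5 CPM, those most like Aqp2 by Pearson r over the 23 libraries were Ltbr (0.85), Slc39a13 (0.84), Fkbp8 (0.84), Mrpl41 (0.83) and Rab1b (0.82). Ltbr encodes the lymphotoxin beta receptor, Slc39a13 a zinc transporter, Fkbp8 a mitochondrial FK506-binding protein, Mrpl41 a mitochondrial ribosomal protein and Rab1b a small GTPase of early secretory traffic. Those most like Avpr2 were Arhgap4 (0.90), Edn3 (0.88), Mal (0.88), Ptger1 (0.86) and Slc16a5 (0.85). Arhgap4 is the gene that shares exonic bases with Avpr2. Edn3 encodes endothelin 3, Mal an apical membrane proteolipid, Ptger1 the EP1 prostaglandin receptor and Slc16a5 a monocarboxylate transporter family member.

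The rest of the pathway was followed through 9 lists. The first holds cyclic nucleotide phosphodiesterases, the enzymes that break down cyclic AMP and cyclic GMP. Of 17 tested, 3 were higher and 0 lower in KO-NK against CT-NK, 2 higher and 1 lower in KO-LK against CT-NK, 5 and 0 in KO-NK against CT-HK, and 4 and 1 in KO-LK against CT-HK. Of all genes 1.70%, 2.04%, 5.78% and 5.49% were called in these comparisons. Their median log2 differences were 0.35, 0.17, 0.12 and 0.11, beside 0.15, -0.04, 0.21 and -0.01 for all genes. Pde7b, which is selective for cyclic AMP, had 6.87, 7.53, 6.08, 6.58 and 5.06 CPM in CT-NK and 5.55 to 8.73 CPM (median 6.97) in CT-HK, against 10 to 19.8 CPM (median 16.7) in KO-NK and 11.8 to 17.9 CPM (median 12.8) in KO-LK. No knockout library overlapped a control library, and the difference passed edgeR's test in all 4 comparisons, from 0.91 (SE 0.17, adjusted p = 0.00188) for KO-LK against CT-HK to 1.27 (SE 0.19, adjusted p = 6.90e-04) for KO-NK against CT-NK. With proximal tubule and thick limb covariates the KO-LK against CT-NK value was 0.97 (adjusted p = 0.0552).

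Pde3b, a cyclic AMP hydrolase inhibited by cyclic GMP, rose in all 4 comparisons too. Its CPM was 93.6 ± 18.2 (SD, n = 6) for KO-NK and 99.0 ± 17.6 (SD, n = 6) for KO-LK, beside 51.9 ± 12.5 (SD, n = 5) for CT-NK and 58.9 ± 9.58 (SD, n = 6) for CT-HK, and the pooled difference was 0.80 (SE 0.12, adjusted p = 7.32e-05). The comparisons with CT-NK lost the call in some fits: KO-NK without the 8 libraries rich in olfactory and vomeronasal counts (0.89, adjusted p = 0.0607), and KO-LK with the proximal tubule and thick limb covariates (0.72, adjusted p = 0.134). Pde4b, a cyclic AMP-specific enzyme, rose against CT-HK, from 22.7 ± 1.60 (SD, n = 6) CPM to 47.2 ± 13.5 (SD, n = 6) in KO-NK (log2 1.06, SE 0.18, adjusted p = 7.46e-04) and 41.9 ± 8.17 (SD, n = 6) in KO-LK (0.89, adjusted p = 0.00305). Against CT-NK it gave 0.71 (adjusted p = 0.0578) and 0.54 (adjusted p = 0.167). Pde10a, which hydrolyses both cyclic nucleotides, rose in KO-NK by 1.73 (SE 0.36, adjusted p = 0.0119) against CT-NK and 1.69 (SE 0.34, adjusted p = 0.00305) against CT-HK, at means of 3.78 and 3.88 CPM in controls and 12.5 CPM in KO-NK. In KO-LK, at 8.97 CPM, it rose by 1.21 (SE 0.34, adjusted p = 0.0321) against CT-HK, with no overlap, and the value against CT-NK was 1.25 (adjusted p = 0.0703). Pde7a, another cyclic AMP enzyme, moved the other way in KO-LK, where it fell by 0.73 (SE 0.15, adjusted p = 0.00309) against CT-HK, from 14.7 to 8.88 CPM. On TPM with limma that difference was -0.26 and did not pass, and the KO-NK calls of Pde10a did not hold when transcript length entered the fit (adjusted p = 0.146 and 0.0911), nor, against CT-NK, with only the groups compared (adjusted p = 0.0507).

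**Figure D5:**
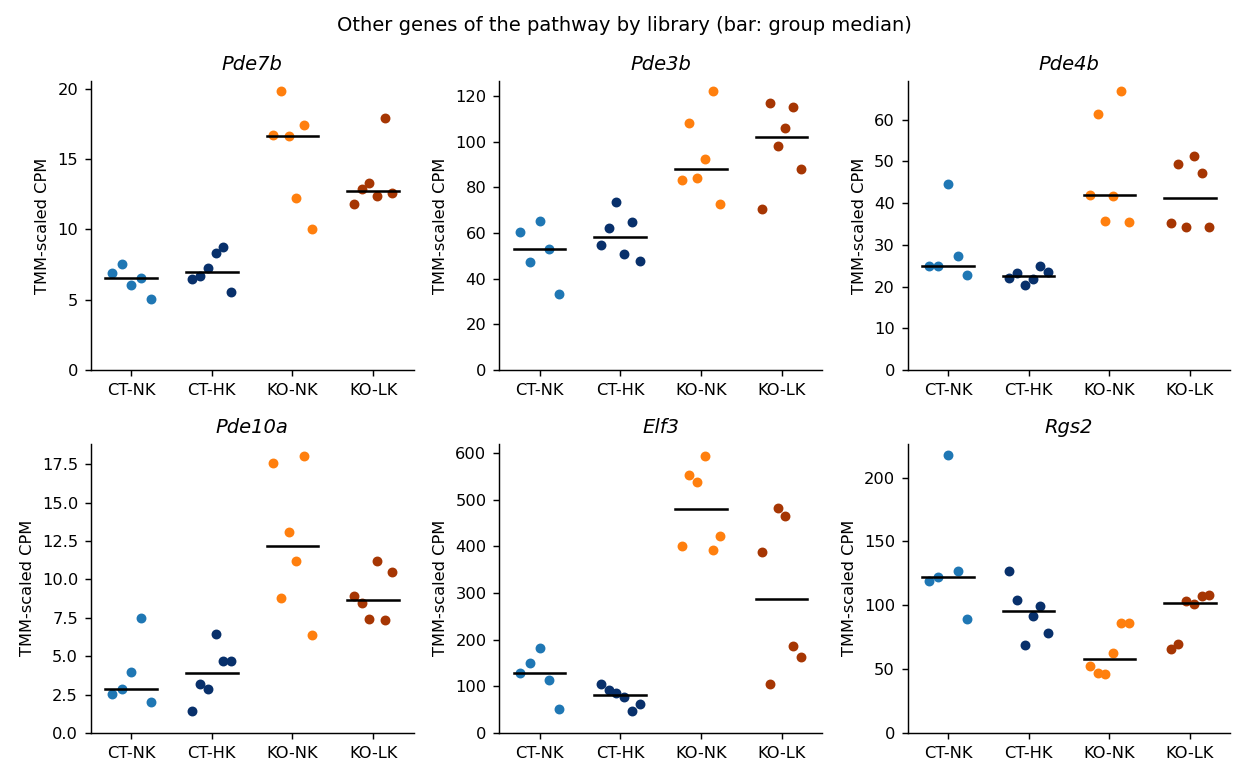
TMM-scaled CPM (vertical axis, from 0) of 4 phosphodiesterase genes, Elf3 and Rgs2, 1 point per library, by group, with the group median as a bar. Pde7b lies between 10 and 19.8 CPM in the 12 knockout libraries and between 5.06 and 8.73 CPM in the 11 controls, and Rgs2 is lowest in KO-NK.

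Transcription factors of principal cells formed another list. Of 8 tested, 1 was higher in KO-NK against CT-NK, 0 in KO-LK against CT-NK, 3 in KO-NK against CT-HK and 2 in KO-LK against CT-HK, and 0 were lower, beside 1.70%, 2.04%, 5.78% and 5.49% of all genes. Their median log2 differences were 0.44, 0.34, 0.50 and 0.40, beside 0.15, -0.04, 0.21 and -0.01 for all genes. Elf3, an epithelial ETS factor of the same family as Elf5, had 128, 150, 183, 114 and 51.7 CPM in CT-NK and 46.7 to 105 CPM (median 81.5) in CT-HK, against 393 to 593 CPM (median 481) in KO-NK. All KO-NK libraries were above all control libraries, while KO-LK was split, with 3 libraries at 389 to 483 CPM and 3 at 105 to 187 CPM. The difference for KO-NK was 1.95 (log2, SE 0.35, adjusted p = 0.00305) against CT-NK and 2.63 (SE 0.34, adjusted p = 2.74e-05) against CT-HK. Without the 8 libraries the value against CT-NK was 2.02 (adjusted p = 0.0515). For KO-LK it was 1.94 (SE 0.33, adjusted p = 5.80e-04) against CT-HK and 1.26 (adjusted p = 0.0565) against CT-NK. Gata2, a GATA factor of the collecting duct, rose in KO-LK against CT-HK from 141 ± 42.8 (SD, n = 6) to 244 ± 32.2 (SD, n = 6) CPM (0.79, SE 0.19, adjusted p = 0.0113). With no low-count filter that Gata2 difference did not pass (adjusted p = 0.0916). In KO-NK against CT-HK Gata2 rose by 0.65 (SE 0.19, adjusted p = 0.0403 by edgeR), a call kept in 28 of 34 alternatives. Against CT-NK Gata2 gave 0.51 (adjusted p = 0.256) in KO-NK and 0.65 (adjusted p = 0.0976) in KO-LK by edgeR, neither past the threshold.

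The next lists hold genes close to the receptor, outside the members. Of all genes 1.70% and 2.04% were called against CT-NK and 5.78% and 5.49% against CT-HK, for KO-NK and KO-LK in turn. An unadjusted p under 0.05 was reached by 11.7% and 12.9% of all genes against CT-NK and by 17.1% and 15.9% against CT-HK. Among 18 genes of vasopressin and oxytocin receptors, G proteins, receptor kinases and arrestins, 1 passed in KO-NK against CT-NK and 0 in the other 3 comparisons. That gene was Rgs2, a regulator of G protein signalling known to be induced by vasopressin in the collecting duct. It had 119, 122, 218, 127 and 89.6 CPM in CT-NK and 46.1 to 86.5 CPM (median 57.7) in KO-NK, with no overlap (log2 -1.09, SE 0.22, adjusted p = 0.00955). CT-HK ran from 69.0 to 127 CPM and KO-LK from 66.0 to 108 CPM, overlapping each other. On TPM with limma (-0.57), and without the 8 libraries rich in olfactory and vomeronasal counts (-1.02, adjusted p = 0.111), the Rgs2 difference of KO-NK from CT-NK did not pass. With the diets pooled Rgs2 differed by -0.56 (SE 0.15, adjusted p = 0.0172 by edgeR), where 10.5% of all genes were called. The pooled call was kept in 31 of 33 alternatives. Of 8 other adenylyl cyclases 0 passed by edgeR, with 0 to 1 at an unadjusted p under 0.05 in each of the 4 comparisons, and the nearest to it was the calcium-stimulated cyclase Adcy1 in KO-NK, with 7.16 CPM against 3.53 CPM in CT-NK (1.02, SE 0.30, adjusted p = 0.0961) and 3.76 CPM in CT-HK (0.93, SE 0.29, adjusted p = 0.0565). DESeq2 (adjusted p = 0.0188), a stricter filter of 5 CPM in 5 libraries (0.0447) and limma on TPM (0.015) called the Adcy1 difference from CT-NK, as did the edgeR fit without CT-NK replicate 5 (1.33, adjusted p = 0.033). Of 16 genes of protein kinase A, its inhibitors and anchoring proteins 0 passed by edgeR, with 2 to 3 at an unadjusted p under 0.05 in each of the 4 comparisons, and the smallest p was that of the regulatory subunit Prkar1b in KO-LK against CT-HK (-0.73, SE 0.24, adjusted p = 0.0847). This difference was called by DESeq2 (-0.77, adjusted p = 0.0194), with DESeq2 size factors (0.0464), with the stricter filter (0.0127), with only the groups compared (0.0264) and without CT-NK replicate 1 (0.0423), CT-HK replicate 6 (0.04) or KO-NK replicate 3 (0.0489).

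The remaining lists stand beside the same shares of all genes. Those were 1.70% and 2.04% against CT-NK and 5.78% and 5.49% against CT-HK, for KO-NK and KO-LK in turn. The CREB family and its coactivators, 10 genes, gave 1 call in each comparison with CT-HK, Sik1, a kinase induced by cyclic AMP that restrains the CREB coactivators. It rose by 1.25 (log2, SE 0.31, adjusted p = 0.014) in KO-NK and 1.20 (SE 0.31, adjusted p = 0.0184) in KO-LK, from 12.7 CPM in CT-HK to 30.3 and 29.3 CPM, and the latter was 1.08 (adjusted p = 0.0512) without CT-HK replicate 2 and 1.16 (adjusted p = 0.0607) with the proximal tubule and thick limb covariates. Against CT-NK, at 22.9 CPM, Sik1 differed by 0.40 (adjusted p = 0.765) in KO-NK and 0.35 (adjusted p = 0.838) in KO-LK by edgeR, with overlap. Without the 8 libraries rich in olfactory and vomeronasal counts neither Sik1 call held (1.29, adjusted p = 0.0611 and 1.42, adjusted p = 0.0707). Of 7 genes of the osmotic response and urea transport 2 were called higher in KO-NK against CT-HK, 1 in KO-LK against CT-HK and 0 in the comparisons with CT-NK. Nfat5, the tonicity-responsive transcription factor, rose in KO-LK against CT-HK by 0.80 (SE 0.19, adjusted p = 0.00972) and in KO-NK by 0.73 (SE 0.19, adjusted p = 0.0182). The KO-NK call of Nfat5 was lost without CT-HK replicate 1 (0.69, adjusted p = 0.0516) and with no low-count filter (0.66, adjusted p = 0.0885), and without the 8 libraries neither call held (0.79, adjusted p = 0.0611 for KO-NK and 0.94, adjusted p = 0.051 for KO-LK). Slc38a2, an amino acid transporter gene induced by hypertonicity, was higher in KO-NK, at 129 CPM, than in CT-HK, at 68.5 CPM, with no overlap (0.91, SE 0.24, adjusted p = 0.0225). Against CT-NK, at 109 CPM, it differed by 0.23 (adjusted p = 0.845 by edgeR), with overlap. The Slc38a2 call was lost without CT-HK replicate 3 (0.85, adjusted p = 0.0618), without the 8 libraries (0.90, adjusted p = 0.104) and with no low-count filter (0.83, adjusted p = 0.0897). Of 27 genes of Aqp2 trafficking and turnover 2 passed in KO-NK against CT-HK as lower, the vesicle fusion protein gene Vamp2 (-0.72, adjusted p = 0.0362) and Sipa1, a Rap1 GTPase-activating protein gene (-0.65, adjusted p = 0.0362), and 0 in the other 3 comparisons. The Vamp2 call was lost in 7 and the Sipa1 call in 4 of the 23 fits with 1 library left out. With a transcript length offset they were -0.57 (adjusted p = 0.0786) and -0.23 (adjusted p = 0.613), and on TPM with limma -0.06 and, reversed, 0.21. Of 9 other aquaporins 6 passed the low-count filter and 0 were called in the 4 comparisons. Pooled, Aqp11, an intracellular aquaporin, had a difference of -0.82 (SE 0.22, adjusted p = 0.0187), where 10.5% of all genes were called. The highest Aqp11 libraries were CT-HK replicate 6 at 78.3 CPM and CT-NK replicate 5 at 50.7 CPM. These 2 libraries also had the most proximal tubule marker counts, 22599 and 14233 CPM. Without CT-NK replicate 5 the Aqp11 difference was -0.70 (adjusted p = 0.0575). Over all 33 alternatives, which include the fit with proximal tubule and thick limb covariates, it ran from -0.89 to -0.20 and passed in 30. How much of the Aqp11 difference goes with proximal tubule content was not tested. No gene of the 9 lists passed in CT-HK against CT-NK or in KO-NK against KO-LK by edgeR.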

How the data were processed

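Gene-level expected counts and TPM were deposited by the authors for the 23 libraries. Per the labels' protocols, RNA of dissected tubules was amplified with SMART-Seq HT, which does not keep strand, and libraries were made with Nextera XT. Salmon 0.14.10 and GRCm38.p6 are named in the submitters' processing notes. Of the expected counts as deposited, 35.9% were not whole, and they were rounded before testing. The deposited TPM served for levels between genes and for ratios within a library.

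Counts were scaled by TMM and tested with edgeR 4.0.16 (filterByExpr, 1 mean per group, quasi-likelihood, 25829 genes, 19 residual degrees of freedom, common biological coefficient of variation 0.563) in R 4.3.3, with Benjamini-Hochberg adjustment over all genes tested and a threshold of 0.05. The pooled comparison set the mean of both knockout groups against that of both control groups. Alternatives used DESeq2 1.42.0 and limma 3.58.1 on log2(TPM + 1), other filters, covariates and libraries left out. The fold changes from limma are on the log2(TPM + 1) scale, which understates the change of low genes. Ratios and correlations were tested by permutation in SciPy 1.17.1 (exact between groups, 100000 resamples for pooled ratios and correlations, two-sided). The edgeR script was tested on simulated data.

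All 9 members are described in each comparison. Of each pathway list up to 3 called genes of smallest p per comparison could be named, or the 1 gene of smallest p where none was called. The members and lists were chosen with earlier results of these data known. All libraries could be placed in a group from their labels, and no library pair held identical values. Intervals reflect the spread between libraries, and library totals (16158408 to 34154475) limit the members with few counts. Same-numbered libraries of different groups were not treated as pairs. The values of 1 called gene in the pathway lists are not reported here, although the counts and medians of its list include it.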

Additional observations from a re-analysis of the deposited data

Results flagged for a closer look

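In 40 sets of values, 9 members and Nr3c2 in 4 groups each, 4 libraries stood far from the others of their group by Dixon's criterion, which chance meets in about 1 of 20 sets. Aqp3 was at 1900 CPM in CT-HK replicate 3, where the group median was 1238 CPM. Aqp4 was at 45.0 CPM in CT-HK replicate 2, where the group median was 7.71 CPM, and this library carried the CT-HK difference of that gene. Avpr1a was low at 30.2 CPM in CT-HK replicate 4, where the group median was 43.7 CPM. Adcy3 was at 1.97 CPM in KO-LK replicate 1, where the group median was 0.966 CPM. Both CT-HK replicate 4 and KO-LK replicate 1 were among the 8 libraries rich in olfactory and vomeronasal receptor counts. No part of these counts in the 2 values was tested.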

How the results depend on the processing

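The number of members called moved with the tool. KO-NK against CT-NK gave 1 with DESeq2, a stricter filter (5 CPM in 5 libraries) or limma on log2(TPM + 1), and 2 with an intercalated cell covariate. KO-LK against CT-NK gave 1 with DESeq2, DESeq2 size factors, the stricter filter, a transcript length offset or only the groups compared, and 2 with limma or the covariate. KO-NK against CT-HK gave 4 with limma and 2 with the covariate. KO-LK against CT-HK gave 2 with DESeq2, the stricter filter, the covariate or only the groups compared, and 5 with limma. Pooled it was 2 with DESeq2, its size factors or the covariate, 3 with the stricter filter and 5 with limma. With 1 library left out the counts were 0 to 1, 0 to 1, 1 to 2 and 1 to 2 in that order, leaving aside KO-LK against CT-HK, which gave 1 in all 23 fits. On limma's TPM scale the share of called genes that were higher was 95.6% to 97.0% in the 4 comparisons, against 40.1% to 55.1% by edgeR, and genes called rose from 439 to 3041, 528 to 4361, 1494 to 5505 and 1418 to 6852. There Sipa1 turned to 0.21 (KO-NK against CT-HK) and 0.20 (pooled) and Vamp2 to 0.01 (pooled). With transcript length offsets 50.6% to 56.0% were higher, and with DESeq2 size factors 32.5% to 52.3%. Genes called with 1 library left out ran from 233 (without CT-NK replicate 5) to 919 (without KO-NK replicate 3), 296 to 1503 (the same libraries), 1058 (without CT-HK replicate 1) to 1929 (without CT-HK replicate 4) and 1080 (without CT-HK replicate 2) to 2432 (without KO-NK replicate 3), and CT-HK against CT-NK reached 169 without CT-HK replicate 6. With no low-count filter they fell to 186 (KO-NK and CT-NK), 799 (KO-NK and CT-HK) and 825 (KO-LK and CT-HK), and with proximal tubule and thick limb covariates to 106 (KO-LK and CT-NK) and 1634 (pooled, from 2721). Without the 8 libraries rich in olfactory and vomeronasal counts the log2 ratio of Aqp2 to Aqp3 differed by -0.62 and -0.59 against CT-NK and by -0.03 between KO-NK and KO-LK, which ran from -0.04 to 0.17 with 1 library left out. Correlations with Aqp2 turned sign for Avpr2 (-0.06) and Elf5 (0.14) without those 8 libraries, for Adcy3 (0.02) and Elf5 (0.04) without the 2 farthest, for Adcy3 (0.05) and Gnas (-0.10) on log2(TPM + 1) and for Avpr1a (0.59) with group means taken out. The cause was not tested. Same-numbered libraries did not pair (33 pairs, median correlation of deviations -0.21, 9 above 0.1, 2 of 23 libraries closest to their own number). With a replicate block the members called were 0, 0, 1, 1 and, pooled, 1, the same counts, and Avpr1a gave 0.92 (adjusted p = 0.0191) and 1.05 (adjusted p = 0.0081) against CT-HK. Adcy3 had no value under the stricter filter. Of the alternatives for single genes 1718 values kept direction and side of the threshold, 51 passed it newly, 113 no longer passed and 3 reversed.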
